A study of Mus musculus with 12 samples.

Results

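The 9 genes followed here have been published as direct targets of the miR-30 family, and their levels were examined in lungs that lack *miR-30a*: *Ppp3ca*, *Ppp3cb*, *Ppp3r1*, *Snai1*, *Runx2*, *Eed*, *P4ha2*, *Twf1* and *Socs3*. They were chosen by name from the literature on the family, and 9 of 9 symbols were found among the 55487 genes of the count table. The lungs came from *miR-30a*-/- mice, which carry a CRISPR deletion of the *miR-30a* region on the C57BL/6J background. Pups of both sexes breathed 95% oxygen (hyperoxia) or room air from postnatal day (PND) 1 to PND 5, and whole lungs were taken on PND 21 after recovery in room air. RNA-Seq counts were analysed for 12 lungs, 3 for each sex in each exposure. All 12 lungs carry the deletion and wild-type lungs were not analysed here, so these values give the level of each target without *miR-30a* and its response to hyperoxia, and they cannot show whether a target was released from *miR-30a*.

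A microRNA guides a silencing complex to messenger RNAs whose 3′ untranslated region (3′ UTR) pairs with bases 2 to 8 of the microRNA, the seed, and the message is then degraded or translated less. The miR-30 family is one of the abundant microRNA families of the lung and is known for restraining epithelial-mesenchymal transition and for roles in vascular sprouting and osteogenic differentiation. The 9 genes differ in function. *Ppp3ca* and *Ppp3cb* encode catalytic subunits of calcineurin, the calcium-dependent phosphatase that activates NFAT transcription factors, and *Ppp3r1* encodes its regulatory subunit. *Snai1* encodes a repressor that drives epithelial-mesenchymal transition, and *Runx2* encodes the master transcription factor of bone formation. *Eed* encodes the subunit of Polycomb repressive complex 2 (PRC2) that reads methylated histone H3. *P4ha2* encodes a catalytic subunit of collagen prolyl 4-hydroxylase, *Twf1* encodes twinfilin-1, which binds actin monomers and caps filament ends, and *Socs3* encodes a feedback inhibitor of JAK-STAT signalling.

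The mature miR-30 sequences show what the deletion removes and what remains. Bases 2 to 8 are in capitals in the following RefSeq sequences of the GRCm38.p6 build.
mmu-miR-30a-5p: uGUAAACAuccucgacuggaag
mmu-miR-30c-5p: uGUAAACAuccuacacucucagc
mmu-miR-30e-5p: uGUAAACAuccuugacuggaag
These arms carry the same seed, so a 3′ UTR match to the deleted miR-30a-5p is also a match to miR-30c-5p and miR-30e-5p, whose genes were not the ones deleted. The family also holds miR-30b and miR-30d. The *miR-30a* gene lies on the plus strand of chromosome 1, and its 5p arm occupies chr1:23272274-23272295. The miR-30e-5p arm lies on the minus strand at chr4:120772660-120772681, within the *Nfyc* host locus. This library type does not measure mature microRNAs. The *Mir30a*, *Mir30c-2*, *Mir30d*, *Mir30e* and *Mir30f* precursor genes had 0 counts in all 12 lungs, which allows up to 3 counts, equal to 0.191 to 0.327 CPM depending on the lung, where CPM are counts divided by the scaled size of each library. *Mir30b* had 0 to 8 counts and *Mir30c-1* had 1 to 20 counts, whereas the host gene *Nfyc* had 182 to 470 counts. The deletion could therefore not be checked from these counts.

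Every one of the 9 genes held at least 1 miR-30 seed match in an annotated 3′ UTR. The motifs searched on the transcript strand were TGTTTACA, an 8mer that pairs with bases 2 to 8 and has an A opposite base 1, TGTTTAC, a 7mer with the bases 2 to 8 pairing only, and GTTTACA, a 7mer with bases 2 to 7 and the A. The shorter motifs lie within the 8mer and were counted only outside it. The 9 genes held 16 matches, of which 8 were 8mers and 8 were 7mers. *Runx2* had 4 matches, *Twf1* had 3, *Eed* and *Ppp3ca* had 2, and the other 5 genes had 1. One match of each gene, the 8mer where it has one, is shown in capitals in windows of 30 bases from the GENCODE transcripts (GRCm38, the build called mm10), written 5′ to 3′ on the transcript strand.
Ppp3ca: aattggattcaGTTTACActatcatgaaaa
Ppp3cb: cacacatttacGTTTACAaatgagatttcc
Ppp3r1: aatgtacctctTGTTTACAtaatctgcata
Snai1: cgggagaaagaTGTTTACAttttaaaggta
Runx2: tgtttacttcaTGTTTACAaataattgttt
Eed: gatgttcacatTGTTTACAttctttgtact
P4ha2: agttctgatgcTGTTTACAtgtgtgttttt
Twf1: tgtgttttgttTGTTTACAaatacgtagac
Socs3: gttttgaataaTGTTTACAatttgcctcaa
The windows of the calcineurin catalytic subunits hold only 7mers, and the other 7 genes have an 8mer. An 8mer was present in 7 of 9 genes (77.8%), against 7.13% of the 21005 genes with an annotated 3′ UTR, and any match was present in 19.3% of those genes. Published targets are in part picked by such matches, so these shares describe the choice of genes and were not tested. In *Runx2* the 8mer begins at base 3468 of the 3′ UTR and a 7mer begins 11 bases upstream, at base 3457, so that the window shown also begins with that 7mer. In *Twf1* the 8mers begin at bases 1355 and 1740 of a 3′ UTR of 1869 bases. The longest 3′ UTRs ranged from 402 bases in *P4ha2* to 3904 bases in *Runx2*. Over the longest 3′ UTRs the 9 genes had 0.969 matches per kb, against 0.161 per kb for all genes.

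The libraries held 8763033 to 16741694 counts per lung, and all 9 genes passed the expression filter of the differential test, with 128 to 3011 counts per lung. The markers of lung epithelium, endothelium and mesenchyme were detected in full, with 0 of 20 at 0 in all lungs. Some features of the libraries touch the results below. The share of counts on olfactory and vomeronasal receptor genes, used here as a measure of background reads although lung cells may express some of them, ranged from 0.410% to 0.947%, and the hyperoxia-exposed male lung with the highest share also had the fewest counts. The paper reports sensory perception pathways as positively enriched after hyperoxia in *miR-30a*-/- females. It names the olfactory receptor gene *Olfr78* among the genes raised there. A fit that takes the share into account, as given below, could remove part of such a response, which was not tested. Red cell genes were lower after hyperoxia, with a summed level of 1247 to 2927 CPM in females after hyperoxia against 5452 to 7881 CPM in those kept in room air. Skeletal muscle genes reached 2262 CPM in 1 room air male lung and at most 209 CPM in the 9 lungs of the other 3 groups. The part of these markers in the results on the 9 genes was not tested.

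Per kilobase of exon, the 9 genes fell into an upper set of 4 and a lower set of 5. *Ppp3r1* stood at 15.2 ± 3.51 CPM per kb, *Snai1* at 14.4 ± 3.64, *Ppp3ca* at 14.03 ± 2.69 and *Twf1* at 11.4 ± 2.70 (SD, n = 12 lungs). *Ppp3cb* followed at 7.01 ± 1.41 CPM per kb, *Socs3* at 6.38 ± 0.805, *Eed* at 5.81 ± 0.765, *P4ha2* at 5.35 ± 0.357 and *Runx2* at 3.70 ± 0.342 (SD, n = 12 lungs). Within a lung, *Ppp3ca* exceeded *Twf1*, *Twf1* exceeded *Ppp3cb* and *P4ha2* exceeded *Runx2* in 12 of 12 lungs. The other neighbours changed places between lungs: *Ppp3r1* exceeded *Snai1* in 9 of 12, *Snai1* exceeded *Ppp3ca* in 7 of 12, *Ppp3cb* exceeded *Socs3* in 10 of 12, *Socs3* exceeded *Eed* in 9 of 12 and *Eed* exceeded *P4ha2* in 8 of 12 lungs. These orders were not tested. The order depends on the length used. With the longest transcript in place of all exons *Ppp3ca* led at 29.4 CPM per kb and *Ppp3cb* rose to 16.1 CPM per kb, above *Snai1* at 14.4. *Runx2* was the lowest by either length, and 33.1% of its counts (20.4% to 49.3% between lungs) were of the size that the background density would give over its exons. The next shares were 22.6% for *P4ha2*, 21.4% for *Eed*, 19.6% for *Socs3* and 18.4% for *Ppp3cb*. Lower shares were 11.5% for *Twf1*, 9.36% for *Snai1*, 9.19% for *Ppp3ca* and 8.60% for *Ppp3r1*.

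**Figure D1:**
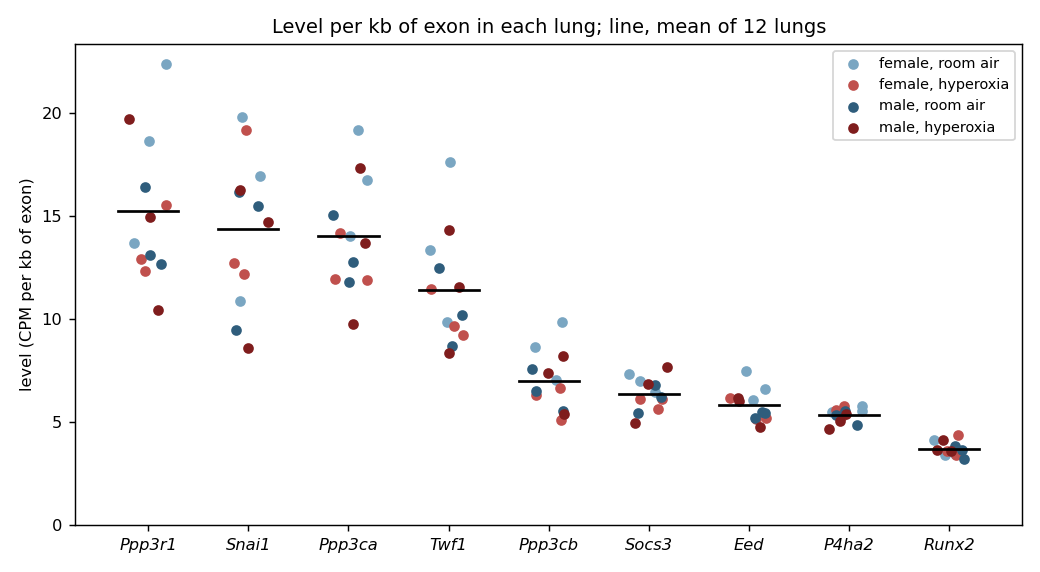
Level of the 9 published miR-30 target genes in CPM per kb of exon (vertical axis, from 0), with 1 point per lung coloured by sex and exposure and a line at the mean of 12 lungs. The genes run from *Ppp3r1* with a mean of 15.2 to *Runx2* with a mean of 3.70.

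The 9 genes differed in how much they varied between lungs. *Snai1* varied most, 2.31-fold from 13.9 to 32.2 CPM with a coefficient of variation of 25.3%. *P4ha2* varied least, 1.25-fold from 28.9 to 36.2 CPM (6.67%), followed by *Runx2* with 1.36-fold (9.24%). The 3 calcineurin genes and *Twf1* varied from 1.93-fold to 2.15-fold, and *Eed* and *Socs3* 1.58-fold and 1.56-fold. The levels of *Ppp3ca* and *Ppp3r1* moved together over the 12 lungs (Pearson r = 0.98 of log2 CPM), as did those of *Ppp3r1* and *Twf1* (r = 0.98). *P4ha2* followed none of the other 8, with r between −0.03 and 0.29. These values describe 12 lungs of 4 groups, which differ in their share of background reads, and they were not tested.

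The first question was whether neonatal hyperoxia left the targets at another level on PND 21 in the mean of both sexes. In edgeR's quasi-likelihood test with Benjamini-Hochberg adjustment, 0 of 9 genes were called at an adjusted p under 0.05 and a fold over 1.5, where 0.0415% of the 45828 genes tested were called. No member had an unadjusted p under 0.05 (0 of 9), and DESeq2 also called 0 of 9 with 0 at an unadjusted p under 0.05. The log2 changes ran from −0.20 for *Ppp3cb* to 0.07 for *Runx2*, with adjusted p from 0.927 to 0.970 (edgeR). Of these changes 8 of 9 were below 0, against 4 of 9 with the log2 receptor share as a covariate. Without the covariate their median was −0.11, beside 0.03 over all genes tested. Of the 13382 genes with a 3′ UTR and a mean of at least 10 CPM, 67.8% were below 0 and the median was −0.06. For all 9 genes the 95% interval of the change lay inside 1.5-fold in both directions, the lowest bound being −0.51 for *Ppp3ca* and the highest 0.31 for *Snai1* on the log2 scale. That count depended on the fit. On this scale 1.5-fold is 0.58, and the interval of *Ppp3ca* reached −0.59 with TMM scaling and −0.63 with animal number as a replicate block in females, where that of *Ppp3cb* reached −0.62, so that 8 and 7 of the 9 lay inside. With 1 lung left out 7 to 9 lay inside, the 7 arising without hyperoxia-exposed male 1.

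**Figure D2:**
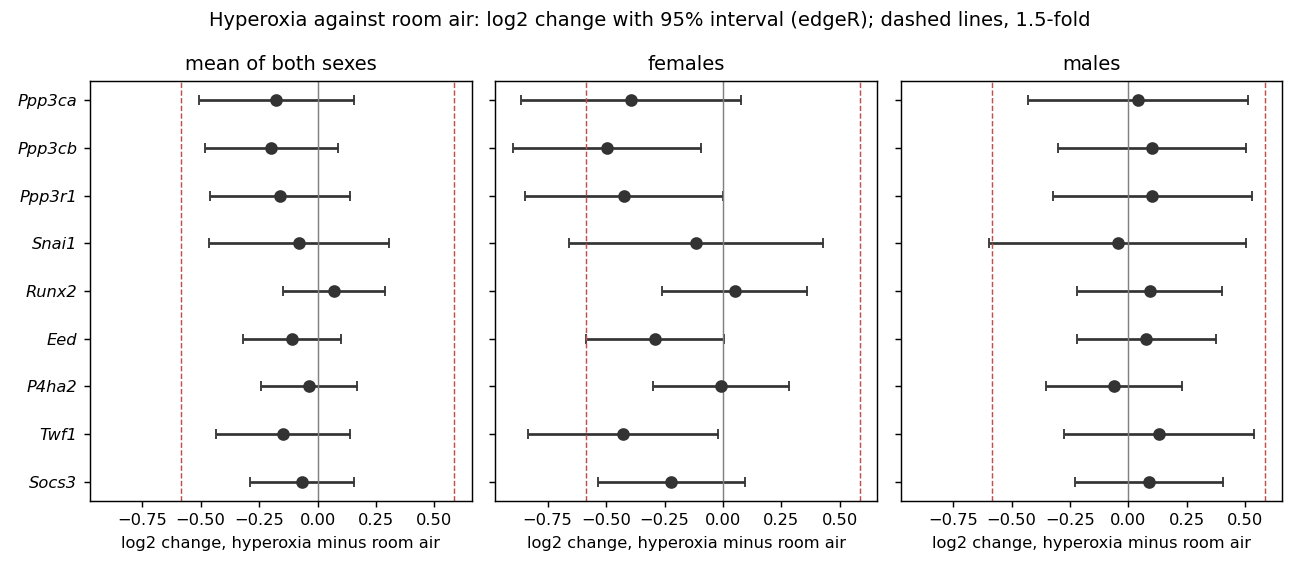
Change of each gene after hyperoxia on the log2 scale (horizontal axis) for the mean of both sexes, females and males, with points for the edgeR estimate, bars for the 95% interval and dashed lines at 1.5-fold. In the mean of both sexes all 9 intervals lie between the dashed lines, and in females those of *Ppp3cb* and *Twf1* do not reach 0.

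In females 0 of the 9 genes passed the adjusted test and 0 were called, where 0.00218% of all genes tested were called. The estimates of the calcineurin genes, *Twf1* and *Eed* were the most negative, from −18.3% to −29.1%, and the groups overlapped for 4 of these 5. With the log2 receptor share as a covariate the same estimates ran from −0.17 for *Ppp3cb* to 0.08 for *Twf1* on the log2 scale. At an unadjusted p under 0.05, *Ppp3cb* and *Twf1* were lower, 2 of 9 genes beside 5.28% of all genes tested and 14.4% of those with a mean of at least 10 CPM (edgeR), and DESeq2 called 0 of 9 with 5 of 9 lower at an unadjusted p under 0.05, beside 8.53% of all genes in its test. The hyperoxia-exposed and room air females did not overlap for *Ppp3cb* and *Socs3*, 2 of 9 genes beside 6.42% of all genes tested with the exposed group lower. The shares of 8.53% and 6.42% include low-count genes and were not taken for genes of at least 10 CPM. For edgeR that limit raised the share from 5.28% to 14.4%. The median log2 change of the 9 genes in females was −0.29, beside 0.11 over all genes tested. Among genes with a 3′ UTR and a mean of at least 10 CPM, a level that all 9 reach, the median was −0.22 for the 1235 genes with an 8mer and −0.17 for the 10190 genes without a match. Of all 13382 such genes 72.9% were below 0 in females, and the counts of related genes given below are to be read beside that share and the 14.4% above. No test was made of these medians.

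Among the calcineurin genes, *Ppp3cb* (ENSMUSG00000021816, chr14:20499364-20546573, minus strand) measured 76.1, 86.6 and 61.9 CPM in room air females and 58.8, 55.5 and 44.9 CPM in hyperoxia-exposed females. All exposed females lay below all room air females. Its log2 change was −0.50 (standard error 0.20, 95% interval −0.90 to −0.09, unadjusted p = 0.0174, adjusted p = 0.357, edgeR). In males *Ppp3cb* measured 57.2, 66.8 and 48.7 CPM in room air and 72.3, 47.3 and 65.1 CPM after hyperoxia. The male groups overlapped throughout, with a log2 change of 0.10 (standard error 0.20, adjusted p = 1.00, edgeR). The 7mer shown above begins at base 295 of its 3′ UTR, in the window chr14:20501171-20501200. *Ppp3cb* overlaps *1810062O18Rik* on the opposite strand, and since the strand setting of the counting is not given in the sources used here, reads of that pair cannot be told apart.

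*Ppp3ca* (ENSMUSG00000028161, chr3:136670124-136937727, plus strand), the most abundant of the 9 by CPM, measured 167, 192 and 140 CPM in room air females and 141, 119 and 119 CPM in hyperoxia-exposed females. The groups overlapped only at the room air lung of 140 CPM and the exposed lung of 141 CPM. The log2 change was −0.39 (standard error 0.23, adjusted p = 0.436, edgeR). Male lungs ranged from 118 to 150 CPM in room air and from 97.3 to 173 CPM after hyperoxia, so that the exposed males held both the lowest and the highest male value. The log2 change in males was 0.04 (standard error 0.23, adjusted p = 1.00, edgeR). Its 7mers begin at bases 126 and 410 of a 3′ UTR of 2502 bases, and the window shown lies at chr3:136935340-136935369. *4930599N24Rik* and *Gm44327* overlap *Ppp3ca* on the opposite strand and *Gm42822* on its own.

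*Ppp3r1* (ENSMUSG00000033953, chr11:17159263-17200375, plus strand) measured 60.2, 72.3 and 44.2 CPM in room air females and 50.2, 41.7 and 39.9 CPM in hyperoxia-exposed females. One exposed lung lay above the lowest room air lung. The log2 change was −0.42 (standard error 0.21, adjusted p = 0.398, edgeR). Leaving out room air female 5, the lung of 72.3 CPM, brought it to −0.25 (adjusted p = 0.914, edgeR). In males, with all lungs, the change was 0.10 (standard error 0.21, adjusted p = 1.00, edgeR), with 40.9 to 53.0 CPM in room air and 33.6 to 63.7 CPM after hyperoxia. Its 8mer lies at base 1581 of the 3′ UTR, in chr11:17199876-17199905. *Ppp3r1* shares its strand and part of its span with *Wdr92*, and shared reads cannot be assigned with certainty.

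The balance of *Ppp3ca*, *Ppp3cb* and *Ppp3r1* changed little between lungs. Per kb of exon, *Ppp3ca* stood at 2.01 ± 0.174 times *Ppp3cb* (SD, n = 12), from 1.81 to 2.33. *Ppp3r1* stood at 0.720 ± 0.0349 times the sum of the catalytic subunits (SD, n = 12), and this ratio was 0.726 ± 0.0303 after hyperoxia and 0.715 ± 0.0412 in room air (SD, n = 6). Of 16 other genes of calcineurin and NFAT signalling, 0 were called in any of the 5 comparisons, and in females 6 were lower and 0 higher at an unadjusted p under 0.05. Their median log2 change in females was −0.36. The most positive change over both sexes was that of *Nfatc4*, with means of 41.8 CPM after hyperoxia and 38.0 CPM in room air, the order used for such pairs below (log2 change 0.14, adjusted p = 0.927, edgeR).

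*Twf1* (ENSMUSG00000022451, chr15:94577951-94589889, minus strand) measured 40.8, 53.8 and 30.2 CPM in room air females and 35.1, 29.6 and 28.2 CPM in hyperoxia-exposed females. The lowest room air lung lay among the exposed lungs. The log2 change was −0.43 (standard error 0.20, 95% interval −0.83 to −0.02, unadjusted p = 0.0395, adjusted p = 0.386, edgeR), and without room air female 5, the lung of 53.8 CPM, it was −0.20 (adjusted p = 0.914, edgeR). Male lungs measured 26.6 to 38.2 CPM in room air and 25.6 to 43.7 CPM after hyperoxia (log2 change 0.13, standard error 0.20, adjusted p = 1.00, edgeR). The first 8mer lies in chr15:94578447-94578476. *Irak4* overlaps *Twf1* on the opposite strand. Of 11 other genes of actin capping and turnover, 0 were called, and in females 8 were lower and 0 higher at an unadjusted p under 0.05, with a median log2 change of −0.52. The most negative change in the mean of both sexes was that of *Pfn1* (profilin-1), with 116 and 151 CPM (−0.37, adjusted p = 0.927, edgeR). All 11 were below 0, and the change nearest to 0 was that of *Pfn2* (−0.06, adjusted p = 0.953, edgeR).

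*Eed* (ENSMUSG00000030619, chr7:89954654-89980983, minus strand) measured 25.3, 28.7 and 23.3 CPM in room air females and 23.6, 19.7 and 19.9 CPM in hyperoxia-exposed females. One exposed lung stood just above the lowest room air lung. The log2 change of −0.29 had a standard error of 0.14 and an adjusted p of 0.399 (edgeR), while in males it was 0.08 (standard error 0.15, adjusted p = 1.00, edgeR), with 19.9 to 21.0 CPM in room air and 18.2 to 23.6 CPM after hyperoxia. Its 8mer window is chr7:89954781-89954810, and its 7mer lies in the 3′ UTR of another transcript. *Eed* overlaps *E230029C05Rik* on the opposite strand and *Gm45120* on its own. Of 10 other PRC2 genes 0 were called, 9 of 10 were below 0 in females with a median log2 change of −0.24 (72.9% of genes of at least 10 CPM were below 0), and 1 was lower at an unadjusted p under 0.05. Of these, the most negative change over both sexes was that of *Rbbp7*, a histone-binding subunit (28.1 and 33.2 CPM, log2 change −0.22, adjusted p = 0.927, edgeR), and the most positive that of *Phf19*, an accessory subunit (25.7 and 23.8 CPM, 0.11, adjusted p = 0.927, edgeR).

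*Socs3* (ENSMUSG00000053113, chr11:117966079-117970047, minus strand) had a small spread in females. Its room air females measured 20.2, 21.2 and 18.6 CPM and its hyperoxia-exposed females 16.3, 17.7 and 17.7 CPM. These groups did not overlap, and the log2 change was −0.22 (standard error 0.15, 95% interval −0.54 to 0.09, adjusted p = 0.493, edgeR). In males the exposed lungs measured 22.2, 14.3 and 19.8 CPM, on both sides of the room air lungs at 15.8, 19.7 and 17.9 CPM (log2 change 0.09, standard error 0.15, adjusted p = 1.00, edgeR). The 8mer window is chr11:117966274-117966303. All 14 other SOCS and JAK-STAT genes were below 0 in females, with a median log2 change of −0.37 and 6 at an unadjusted p under 0.05, beside 72.9% and 14.4% of genes of at least 10 CPM, and 0 were called. Over both sexes the change nearest to 0 was that of *Il6ra* (−0.0041, adjusted p = 1.00, edgeR).

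*Snai1* (ENSMUSG00000042821, chr2:167538195-167542814, plus strand) measured 32.2, 27.5 and 17.6 CPM in room air females and 31.1, 20.6 and 19.8 CPM in hyperoxia-exposed females. The groups covered nearly the same range, with a log2 change of −0.11 (standard error 0.26, 95% interval −0.66 to 0.43, adjusted p = 0.845, edgeR). Male lungs measured 15.4, 26.3 and 25.1 CPM in room air and 26.4, 13.9 and 23.9 CPM after hyperoxia (log2 change −0.05, standard error 0.26, adjusted p = 1.00, edgeR). The spread within each group, with SDs from 5.99 to 7.43 CPM, was larger than any difference between groups. Its 8mer lies near the end of the 3′ UTR, at base 630 of 731, in chr2:167542702-167542731. Of 10 other transition and junction genes 0 were called. Over both sexes *Cdh1*, E-cadherin, had the most negative change (146 and 186 CPM, log2 change −0.33, adjusted p = 0.927, edgeR), and *Snai3*, a low-level relative of *Snai1*, the most positive (5.02 and 3.83 CPM, 0.39, adjusted p = 0.927, edgeR).

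*Runx2* (ENSMUSG00000039153, chr17:44495987-44814797, minus strand) measured 36.5, 30.5 and 30.1 CPM in room air females and 38.4, 30.2 and 31.9 CPM in hyperoxia-exposed females. The values interleaved, and the log2 change was 0.05 (standard error 0.15, 95% interval −0.26 to 0.36, adjusted p = 0.886, edgeR). In males it was 0.09 (standard error 0.15, adjusted p = 1.00, edgeR), with 28.3 to 33.7 CPM in room air and 31.7 to 36.3 CPM after hyperoxia. The window shown is chr17:44604419-44604448. *Supt3* and antisense transcripts overlap *Runx2*, so that its counts, low per kb as they are, are the least certain of the 9. Of 9 other RUNX and osteogenic genes 0 were called. Among them *Cbfb*, the partner subunit of RUNX proteins, had the most negative change over both sexes (28.7 and 34.3 CPM, log2 change −0.24, adjusted p = 0.927, edgeR), and *Bglap*, osteocalcin, the most positive (2.89 and 2.14 CPM, 0.44, adjusted p = 0.927, edgeR).

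*P4ha2* (ENSMUSG00000018906, chr11:54100095-54131665, plus strand) was the steadiest gene. It measured 34.5, 34.3 and 35.9 CPM in room air females, 34.9, 36.2 and 33.0 CPM in hyperoxia-exposed females, 30.1, 33.4 and 34.4 CPM in room air males and 28.9, 31.3 and 33.6 CPM in hyperoxia-exposed males. The log2 change was −0.01 in females (standard error 0.14, 95% interval −0.30 to 0.28, adjusted p = 0.980, edgeR) and −0.06 in males (standard error 0.14, adjusted p = 1.00, edgeR). The 8mer lies at base 318 of its short 3′ UTR, in chr11:54131567-54131596. Of 13 other collagen hydroxylases and partners 0 were called. Among them *Serpinh1*, the collagen chaperone HSP47, had the most negative change over both sexes (137 and 211 CPM, log2 change −0.61, adjusted p = 0.756, edgeR), and *Plod1*, a lysyl hydroxylase, the most positive (59.8 and 58.0 CPM, 0.05, adjusted p = 0.968, edgeR).

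**Figure D3:**
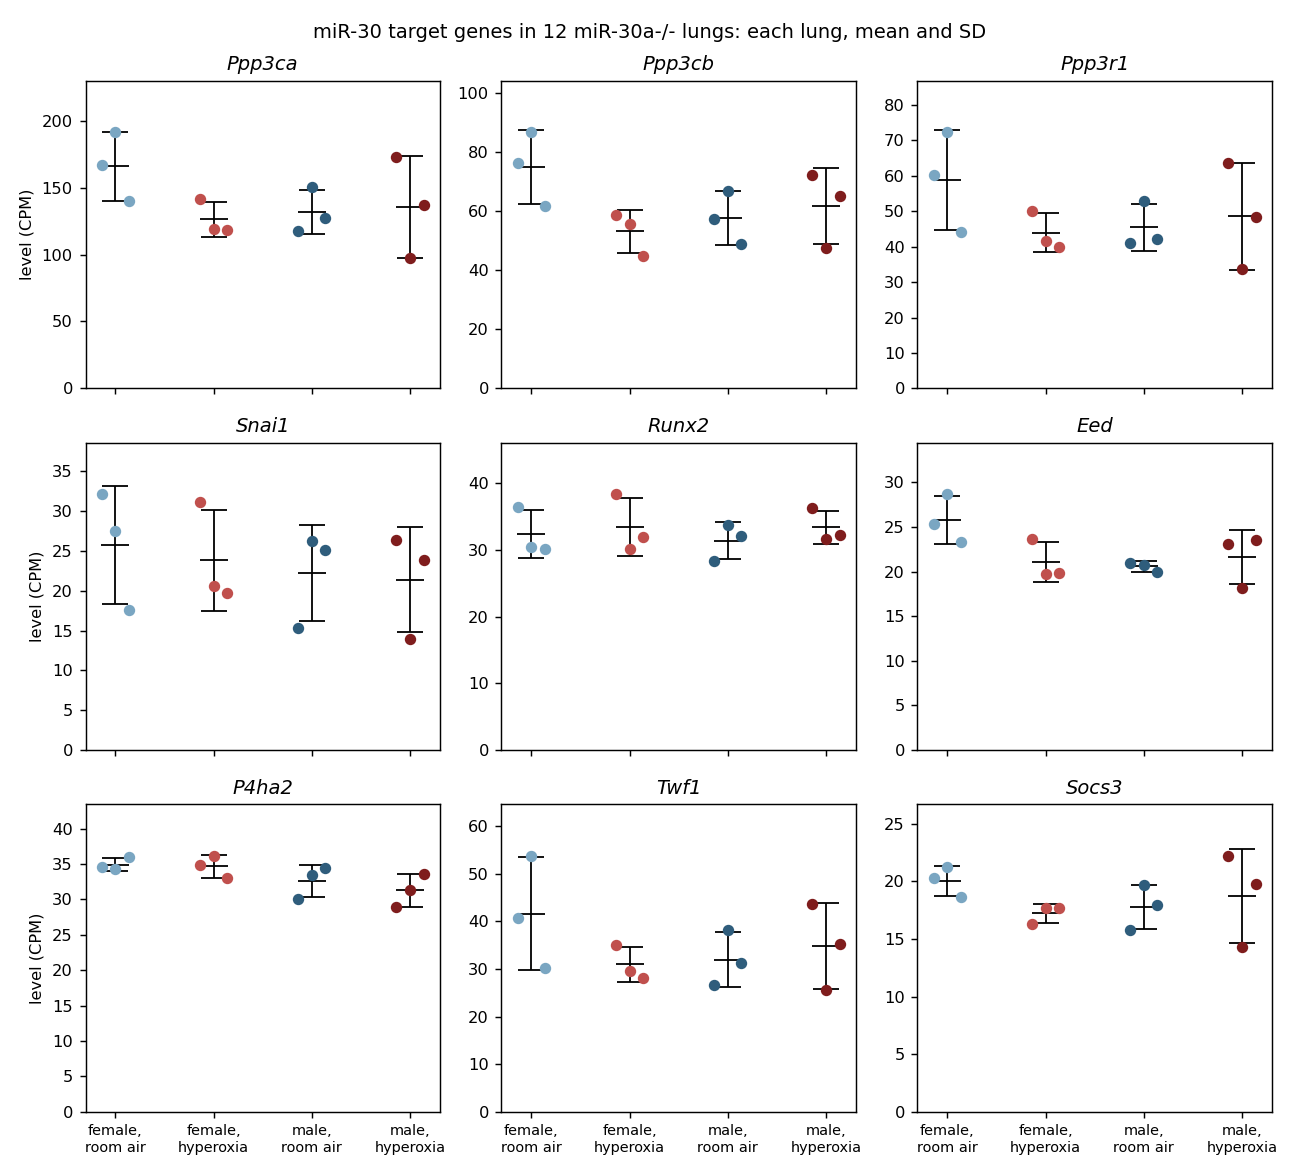
Level of each gene in CPM (vertical axes, from 0) in the 3 lungs of each sex and exposure, with 1 point per lung and bars for the mean and SD. Hyperoxia-exposed females lie wholly below room air females for *Ppp3cb* and *Socs3*, and the male groups overlap for all 9 genes.

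In males 0 of 9 genes were called, where 0% of the genes tested were called. No member had an unadjusted p under 0.05 (0 of 9 in edgeR and 0 of 9 in DESeq2). Of the 9 changes, 7 were above 0, the range was −0.06 to 0.13 on the log2 scale, and their median was 0.09 beside −0.01 over all genes tested and 0.03 over the genes of at least 10 CPM. For 8 of 9 genes the 95% interval lay inside 1.5-fold, the exception being *Snai1* with a lower bound of −0.60. With TMM scaling 4 of 9 lay inside and with DESeq2 6 of 9, the upper bound of *Twf1* being 0.60 and 0.68. With 1 lung left out 4 to 9 lay inside, with 4 without hyperoxia-exposed male 2 or room air male 4 and 5 without hyperoxia-exposed male 3. In females only *P4ha2*, *Runx2* and *Socs3* had an interval inside 1.5-fold, and the count was 8 with RUVr (explained below) or the receptor share as a covariate, 5 in the female lungs alone, 2 with TMM, DESeq2, no filter or the replicate block, and 2 to 4 with 1 lung left out.

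Whether the sexes differed in this response was tested as an interaction. Again 0 of 9 genes were called, with 0% of the genes tested called. *Ppp3cb* had the largest difference, −0.60 on the log2 scale for females minus males (standard error 0.28, 95% interval −1.17 to −0.03, unadjusted p = 0.0406, adjusted p = 0.578, edgeR), and it was the 1 gene of the 9 with an unadjusted p under 0.05 in edgeR and in DESeq2, where 8.46% and 7.50% of all genes passed it. *Twf1* followed with −0.56 (adjusted p = 0.578, edgeR), which was −0.33 without room air female 5 and −0.37 without hyperoxia-exposed male 1. *Ppp3r1* had −0.52 (adjusted p = 0.578, edgeR), which was −0.29 without that male. The smallest differences were those of *Runx2* (−0.04) and *P4ha2* (0.05). With the log2 receptor share as a covariate the differences were −0.19 for *Ppp3cb*, 0.075 for *Twf1* and 0.099 for *Ppp3r1*. With RUVr, explained below with the limit of its p-values, 4 of the 9 had an adjusted p under 0.05, and 0 were called with the fold threshold. Between females and males, as the mean of both exposures, 0 of 9 genes were called, while 1.22% of the genes tested were called. The estimates of all 9 were above 0 for females minus males, from 0.02 for *Socs3* to 0.18 for *Snai1* on the log2 scale, and 7 of the 9 were below 0 with the log2 receptor share as a covariate. Their adjusted p was 0.938 or more (edgeR), with 0 of 9 at an unadjusted p under 0.05 in edgeR and in DESeq2.

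The female values depended on how unwanted variation was treated. RUVr, which estimates unwanted factors from the residuals of the fit, is a step of the study's own normalization that the values above leave out. With 1 such factor the log2 changes stayed close to those above and their errors shrank. Both follow in part from the construction, since residuals of the fit hold the spread within groups and little of the difference between them. The p-values with RUVr are therefore not a separate test of the response to hyperoxia. Then 5 genes had an adjusted p under 0.05 in females: *Ppp3cb* (−0.49, adjusted p = 1.30e-05), *Ppp3ca* (−0.39, adjusted p = 4.46e-05), *Ppp3r1* (−0.40, adjusted p = 0.000156), *Twf1* (−0.39, adjusted p = 0.000589) and *Eed* (−0.29, adjusted p = 0.0399). The falls were under 1.5-fold, so that 0 of 9 were called with the fold threshold, while over all genes that fit called 1903 with the fold threshold, against 1 without the factor, and 7672 passed the adjusted p alone. With the log2 receptor share as a covariate the changes of the same genes were nearer to 0: −0.17 for *Ppp3cb*, −0.02 for *Ppp3ca*, 0.06 for *Ppp3r1*, 0.08 for *Twf1* and −0.12 for *Eed*, with adjusted p from 0.950 to 0.998 (edgeR). *Snai1* moved to 0.42 with the covariate (unadjusted p = 0.0465, adjusted p = 0.897, edgeR).

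**Figure D4:**
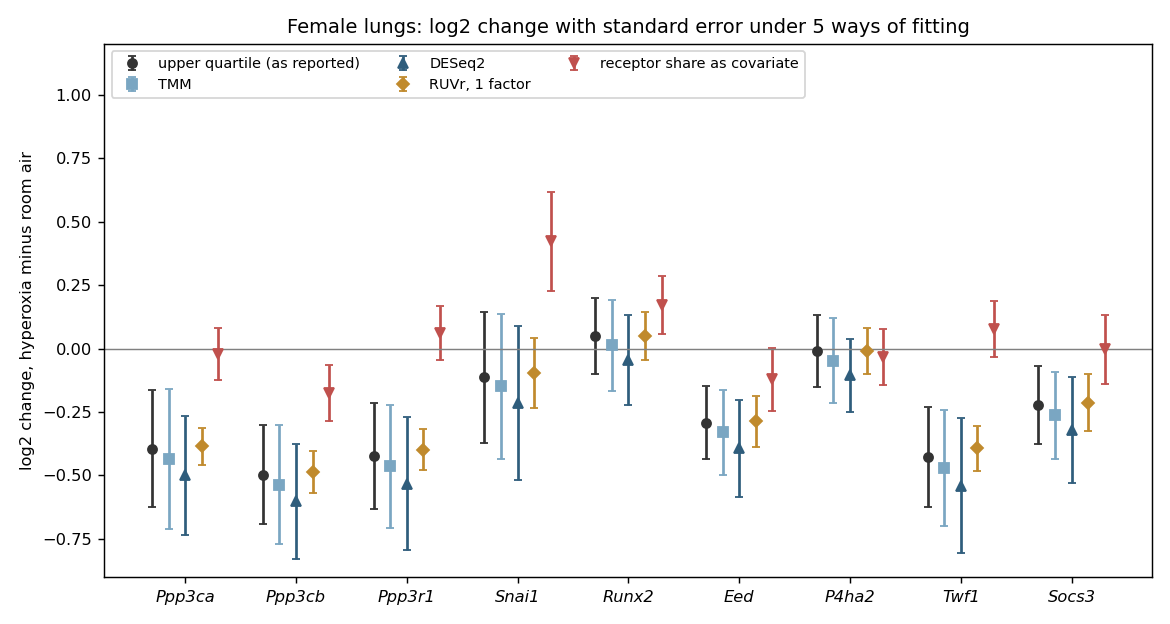
Change of each gene in females after hyperoxia on the log2 scale (vertical axis), with its standard error, under upper quartile, TMM and DESeq2 scaling, 1 RUVr factor and the receptor share as a covariate. For *Ppp3cb* the estimate is −0.50 as reported, −0.49 with RUVr and −0.17 with the covariate.

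Across the 12 lungs, the level of most of these genes moved with the receptor share. RNA quality and genomic DNA in these libraries were not analysed here, and what sets the share was not tested. Lungs with a larger share had less of the calcineurin messages and *Twf1*: Pearson r between log2 CPM and the log2 share was −0.98 for *Twf1* (Spearman rho −0.99), −0.98 for *Ppp3r1* (rho −0.99), −0.96 for *Ppp3ca* (rho −0.99) and −0.90 for *Ppp3cb* (rho −0.91). By permutation test over 9 genes with 100000 permutations, p for r was 1e-05 for *Twf1*, *Ppp3r1* and *Ppp3ca*, the smallest these permutations can give (adjusted 3e-05), and 8e-05 for *Ppp3cb* (adjusted 0.00018). The p-values of rho for these were 1e-05, 1e-05, 1e-05 and 0.00011 by permutation. *Eed* (r = −0.86, rho −0.77, permutation p = 0.00031 and 0.00449), *Socs3* (−0.82, −0.87, permutation p = 0.00108 and 0.0006) and *Snai1* (−0.76, −0.87, permutation p = 0.00416 and 0.00049) also passed after adjustment, the largest adjusted p being 0.00577. *Runx2* (r = −0.42, rho −0.55, adjusted permutation p = 0.201 and 0.0801) and *P4ha2* (r = −0.07, rho −0.13, adjusted permutation p = 0.82 and 0.701) did not.

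Without room air female 5 and hyperoxia-exposed male 1, the lungs farthest from the median share, r stayed between −0.75 and −0.96 for the 7 genes that passed. It was −0.72 for *Runx2* and −0.53 for *P4ha2* without them. Within the room air lungs r of the 7 genes ran from −0.76 to −0.99, and within the hyperoxia-exposed lungs from −0.79 to −0.99 (n = 6 each). The relation was common in these libraries: of 14602 genes with a mean of at least 10 CPM, 43.8% had r below −0.75, as 7 of the 9 genes did, and 6.03% had r below −0.95, as 3 of the 9 did. The median r of the 14602 genes was −0.67. The permutation tests above compare r with 0 and not with that median, so passing them does not set the 9 genes apart. The receptor share itself was 0.767% ± 0.0901 in exposed females and 0.556% ± 0.168 in unexposed females (SD, n = 3; exact permutation test, two-sided, p = 0.20, where 0.10 is the smallest possible). In males it was 0.729% ± 0.215 and 0.771% ± 0.129 (SD, n = 3; exact permutation p = 0.90), and over both sexes 0.748% ± 0.149 and 0.664% ± 0.179 (SD, n = 6; exact permutation p = 0.398). The female groups overlapped in this share, a room air lung at 0.740% lying above an exposed lung at 0.670%, and the parts of exposure and receptor share in the female values cannot be told apart with 3 lungs per group. Lung epithelial markers summed to 10705 to 20837 CPM in room air females and 9648 to 10546 CPM in exposed females, with 8 of 8 below 0, and immediate early genes to 380 to 501 and 218 to 339 CPM, also with 8 of 8 below 0. Endothelial markers summed to 1587 to 2425 CPM and 1417 to 1888 CPM in the same order, with 6 of 6 below 0 and a median log2 change of −0.41. Cardiac muscle genes summed to 191 to 216 CPM in room air females and 90.6 to 123 CPM in exposed females, with 3 of 5 lower at an unadjusted p under 0.05 and a median of −1.11. The part of any of these lists in the values of the 9 genes was not tested, and in whole lung fewer cells of a type and less RNA per cell cannot be told apart.

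**Figure D5:**
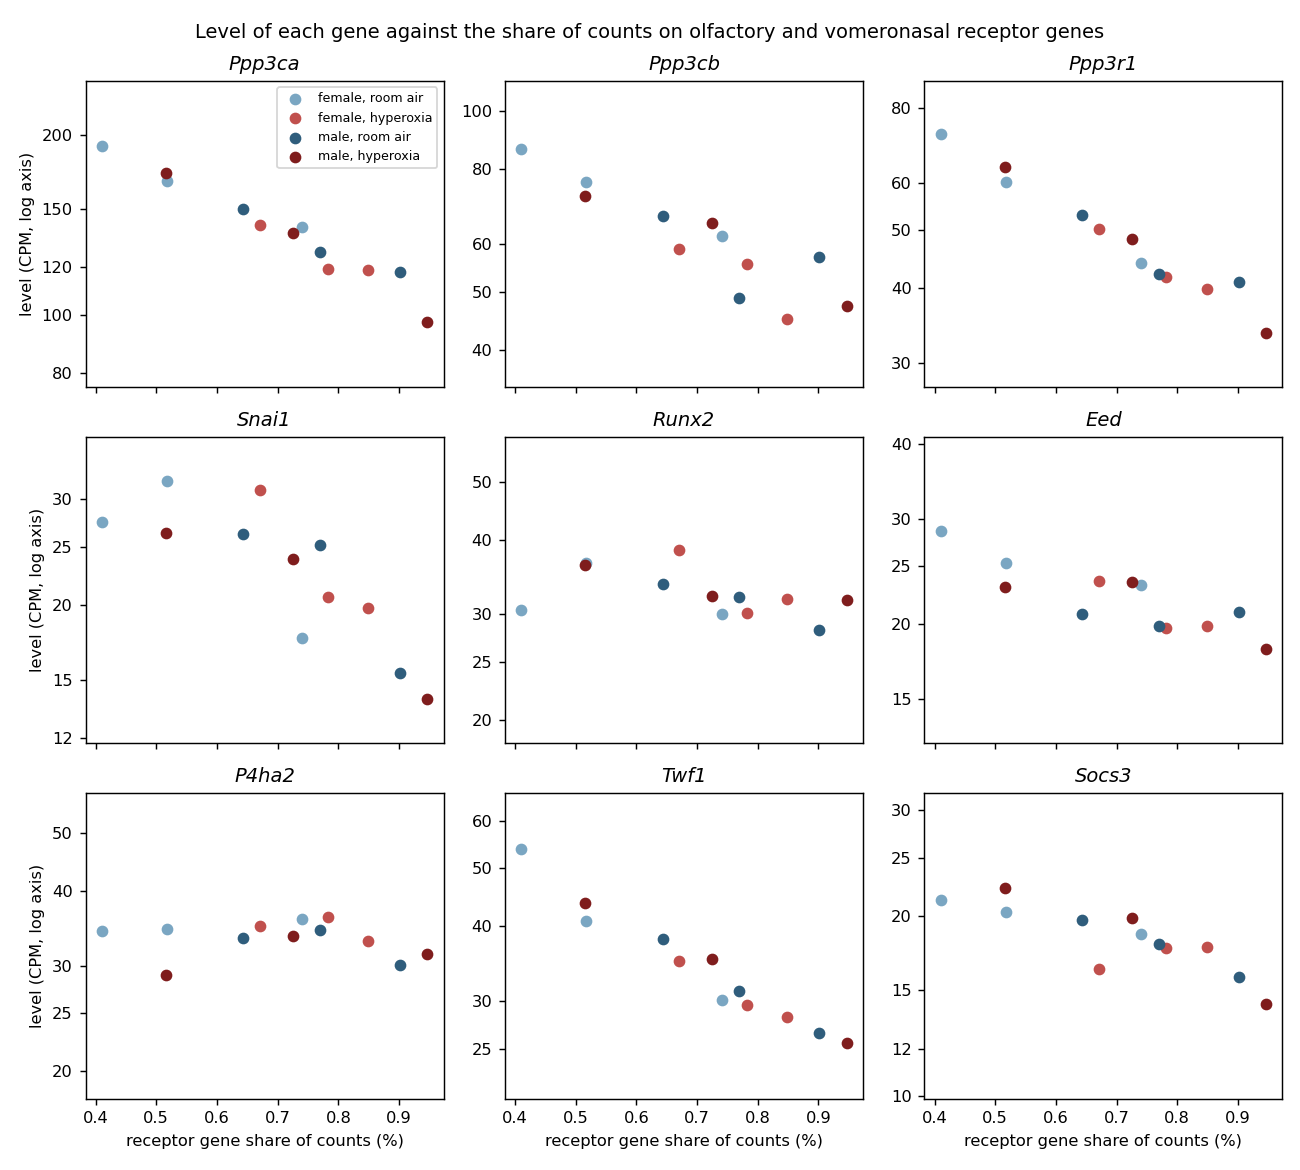
Level of each gene in CPM (vertical axes, logarithmic) against the share of counts on olfactory and vomeronasal receptor genes in percent (horizontal axes), with 1 point per lung coloured by sex and exposure. *Ppp3ca*, *Ppp3r1* and *Twf1* fall along 1 line in all 4 groups from the lung with a share of 0.410% to the lung with 0.947%, while *P4ha2* is flat.

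The genes most like each member over the 12 lungs, among genes with a mean of at least 10 CPM, were given by Pearson r of log2 CPM. *Ppp3ca* was nearest to *Ddx6* and *2900097C17Rik* (r = 1.00 for both at 2 decimals), *Ppp3r1* to *Flii* and *Pbrm1* (0.99 and 0.99), *Twf1* to *Helz* and *Vamp8* (0.99 and 0.99), *Ppp3cb* to *Fxr1* and *Rab18* (0.99 and 0.98) and *Eed* to *Pxk* and *Prepl* (0.98 and 0.97). *Socs3* was nearest to *Pid1* and *Gopc* (0.96 and 0.96) and *Snai1* to *Nnat* and *Runx1t1* (0.95 and 0.95). *Runx2* reached 0.88 with *Rgs3* and 0.86 with *Cracr2b*, and *P4ha2* 0.84 with *Hyls1* and 0.82 with *H2-Q7*. These are the 2 highest of 14601 values for each gene and are given as a description, with no test.

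Of 13 other genes that have been reported as miR-30 targets, 0 were called in any comparison, 11 of 13 were below 0 in the mean of both sexes with a median log2 change of −0.08, and 12 of 13 in females with a median of −0.31. Among genes with a 3′ UTR and at least 10 CPM the shares below 0 were 67.8% and 72.9%. *Dll4*, the endothelial Notch ligand that limits sprouting, has an 8mer at base 59 of its 3′ UTR. It stood at 58.2 ± 5.10 CPM in exposed females and 68.6 ± 16.1 CPM in unexposed females (SD, n = 3), with a log2 change of −0.24 (standard error 0.22, adjusted p = 0.592, edgeR). The most negative change of this list over both sexes was that of *Hspa5*, the chaperone BiP (99.9 and 135 CPM, log2 change −0.41, adjusted p = 0.927, edgeR), and the most positive that of *Lhx1* (12.98 and 12.03 CPM, 0.11, adjusted p = 0.927, edgeR). Over all 8 lists of related genes, 96 genes were tested and 0 were called in any comparison. At an unadjusted p under 0.05, 30 of the 96 were lower and 1 was higher in females, where 5.28% of all genes tested were lower, 14.4% of those with a mean of at least 10 CPM were lower, and 7.32% of all were higher. In males 0 of the 96 passed it, where 1.80% of all genes were lower and 0.899% higher.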

How the data were processed

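Whole-lung RNA-Seq of 12 *miR-30a*-/- mice was analysed, with groups taken from the sample labels. The authors trimmed reads with Trim Galore, aligned them to mm10 with STAR and deposited raw counts per gene from featureCounts; their versions, the annotation and the strand setting are not given in the sources used here. For library preparation the paper names a QIAseq stranded kit and the labels a NEBNext Ultra II Directional kit. Each column was matched to 1 lung, and 0 columns were left over.

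Counts were fitted with edgeR 4.0.16 (R 4.3.3, robust quasi-likelihood, upper-quartile scaling, filterByExpr) as 4 group means on 45828 genes, with adjustment over all of them. A gene was called at an adjusted p under 0.05 and a fold over 1.5. The biological coefficient of variation was 0.177. CPM use the scaled library sizes, and per-kb levels the exon union of GENCODE mouse release vM21, which matched 55227 of 55487 genes. The median reads per kb on 1490 receptor genes gave the background density. The ComBat-seq step of the paper included wild-type samples and was not repeated, and its RUVr step, whose number of factors is not given in the sources used here, was run as an alternative.

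Alternatives were TMM, DESeq2 1.42.0, no filter, the receptor share as a covariate, RUVr with 1 factor, animal number as a block in females, an additive model, each sex alone, the adjusted p alone and each lung left out. On simulated data for females (45013 genes), 7 of 50 genes changed 1.5-fold, 32 of 50 changed 2-fold and 50 of 50 changed 3-fold were recovered, with 11 false calls. A gene set at 1.5-fold was recovered only if its estimate exceeded that fold. The simulation drew each gene independently, without variation shared by the genes of a lung beyond library size. Floors and counts cover counting error only, since no molecular identifiers are described.

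The 9 genes, the lists and the tests were chosen with earlier results of these data known. Named were the 9 genes, *Dll4*, the largest rise and fall of each list across both sexes, genes of the lists called in any comparison (0 were), and the 2 genes most like each of the 9. For 2 lists the largest fall is not reported here.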

Additional observations from a re-analysis of the deposited data

How the results depend on the processing

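No alternative and no left-out lung called any of the 9 genes with the fold threshold: among 306 single-gene values under other settings 0 were called and 24 changed sign, and among 540 values with 1 lung left out 0 were called and 37 changed sign. With RUVr and the adjusted p alone, a combination chosen after seeing the data, 2 of the 9 genes passed over both sexes, 5 in females and 4 in the interaction. The smaller errors behind these passes follow in part from how RUVr is built, as given above. Counts over all genes moved more. Over both sexes they were 40 with DESeq2, 92 with RUVr and 2069 with RUVr and the adjusted p alone, and 3 to 37 with 1 lung left out, against 19. In females they were 0 with TMM, 44 with DESeq2, 8 without the filter, 22 with the covariate, 1903 with RUVr, 7672 with RUVr and the adjusted p alone, 80 in the female lungs alone, and 0 to 206 with 1 lung left out, against 1; the 206 arose without room air female 6. In males they were 6 with the covariate, 16 with RUVr, 67 with RUVr and the adjusted p alone, 2 in the male lungs alone and 0 to 1 with 1 lung left out, against 0. The interaction called 2101 with RUVr and 5361 with the adjusted p alone as well, against 0. Females against males gave 1004 without the filter, 977 with the covariate, 1006 with RUVr and 2145 with the adjusted p alone as well, against 559, and 476 to 687 with 1 lung left out. The cause of these shifts was not tested.

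With the covariate, the changed signs were, over both sexes, *Snai1* 0.12, *Ppp3r1* 0.011, *Twf1* 0.040 and *Socs3* 0.013. In females they were *Snai1* 0.42, *Ppp3r1* 0.060 and *Twf1* 0.077, and in males *Ppp3ca* −0.067 and *Ppp3r1* −0.038. In the interaction they were *Snai1* 0.61, *Runx2* 0.11, *Ppp3ca* 0.046, *Ppp3r1* 0.099 and *Twf1* 0.075. For females against males they were *Snai1* −0.014, *Runx2* −0.022, *Ppp3ca* −0.014, *Ppp3cb* −0.040, *Ppp3r1* −0.058, *Twf1* −0.078 and *Socs3* −0.055. DESeq2 gave *Runx2* −0.045 in females and *P4ha2* −0.057 in the interaction, and the female lungs alone gave *P4ha2* 0.016.

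With 1 lung left out, log2 changes that crossed 0 over both sexes ranged from −0.20 to 0.033 for *Snai1* and from −0.13 to 0.013 for *Socs3*. In females they ranged from −0.36 to 0.078 for *Snai1*, from −0.066 to 0.15 for *Runx2* and from −0.044 to 0.028 for *P4ha2*. In males the ranges were −0.25 to 0.18 for *Snai1*, −0.17 to 0.24 for *Ppp3ca*, −0.026 to 0.26 for *Ppp3cb*, −0.14 to 0.31 for *Ppp3r1*, −0.059 to 0.32 for *Twf1* and −0.046 to 0.25 for *Socs3*. In the interaction they were −0.32 to 0.13 for *Snai1*, −0.16 to 0.050 for *Runx2* and −0.0080 to 0.10 for *P4ha2*. For females against males they were −0.031 to 0.062 for *Runx2*, −0.011 to 0.21 for *Twf1* and −0.057 to 0.094 for *Socs3*. In females *Ppp3cb* stayed between −0.62 and −0.38 and *Twf1* between −0.62 and −0.20.

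The deviations of lungs with the same animal number correlated at 0.11 and −0.24 in females and −0.40 in males, not all over 0.1, so the numbers were not taken to pair the lungs. The replicate block in females left 0 of 9 genes called in every comparison, with a median log2 change of −0.32 in females; over all genes it called 1 in males and 326 between the sexes. None of the 18 sets of 6 lungs held an outlying value by Dixon's test. With 3 lungs per group and 8763033 counts in the shallowest lung, the female intervals of the fit reported reach past 1.5-fold for 6 of the 9 genes.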

Other observations

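The proportion of some of the 9 genes to a close relative is given here for the females, with the male means after. Per kb of exon *P4ha2* was 0.473 ± 0.0957 times *P4ha1*, the other main catalytic subunit of collagen prolyl 4-hydroxylase, in room air females and 0.686 ± 0.0568 times in hyperoxia-exposed females (SD, n = 3). Over both sexes this ratio ranged from 0.401 to 0.644 in room air and from 0.556 to 0.812 after hyperoxia. *Runx2* was 0.420 ± 0.0907 times *Runx1* in room air females and 0.548 ± 0.0624 times in exposed females (SD, n = 3). The ratio of *Eed* to *Ezh2*, the catalytic subunit of PRC2, was 1.35 ± 0.0683 and 1.25 ± 0.0374, and that of *Twf1* to *Twf2* 1.15 ± 0.236 and 1.10 ± 0.0857 (SD, n = 3). These relatives were named after their values were seen, and the ratios were not tested.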
